A study of Mus musculus with 24 samples.

Results

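The genes described here are 10 core transcription factors of the heart: Gata4, Gata6, Nkx2-5, Tbx5, Tbx20, Mef2a, Mef2c, Mef2d, Hand2 and Tead1. They were taken by name from the deposited count table, which lists 23337 genes, and were chosen with earlier results of these data known. All 10 passed the filter on low counts that left 12281 genes for testing. The measurements are RNA sequencing of cardiomyocytes, the contracting cells of the heart, that were sorted from the hearts of 4-week-old mice. Each of the 4 groups held 6 libraries. Every mouse carried the Cas9 nuclease as Rosa-Cas9/Cas9 and had received an adeno-associated virus (AAV) on postnatal day 1. The triple group (TKO) was Mrtfb-F/F and Mrfta-/-, as the labels spell these alleles, and received AAV-Myocd-sgRNA, a virus with a guide RNA against Myocd. The double group (DKO) had the genotype of TKO and received AAV-Cre. The myocardin group (MKO) carried Rosa-Cas9/Cas9 alone and received AAV-Myocd-sgRNA. The controls (Ctrl) carried Rosa-Cas9/Cas9 alone and received AAV-Cre. The labels name neither the promoter that drives Cre nor a Cre in the guide virus.

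Heart muscle cells keep their identity through a small set of DNA-binding factors that bind the same regulatory regions and act on shared genes. Gata4 and Gata6 are zinc-finger factors, Nkx2-5 is a homeodomain factor, Tbx5 and Tbx20 belong to the T-box family, and Hand2 is a basic helix-loop-helix factor. Mef2a, Mef2c and Mef2d are MADS-box factors, the family that also holds serum response factor (Srf). Tead1 binds DNA for the coactivators of the Hippo pathway. Myocardin (Myocd) and its relatives Mrtfa and Mrtfb, targeted here, are coactivators that bind Srf and drive genes of contraction and of the actin cytoskeleton.

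Library totals lay between 10.21 and 17.18 M counts in TKO, between 5.83 and 12.16 in DKO, between 9.73 and 13.2 in MKO and between 8.02 and 11.5 in Ctrl. Mrtfa, listed as Mkl1, spanned 1.33 to 2.66 CPM (read counts scaled to library size) in TKO and 1.40 to 2.77 in DKO, against 6.39 to 11.87 in MKO and 4.81 to 11.33 in Ctrl. Mrtfb, listed as Mkl2, spanned 27.5 to 42.5 CPM in TKO and 26.6 to 39.3 in DKO, against 44.1 to 59.2 in MKO and 44.8 to 55.9 in Ctrl. Myocd transcripts spanned 175 to 324 CPM in TKO, 175 to 242 in DKO and 120 to 187 in MKO, against 153 to 234 in Ctrl. Counts over the gene do not read out a small edit by Cas9. Markers of cardiomyocytes, the labelled cell type, were detected throughout, with none at 0 in any library. The summed level of the 10 cardiomyocyte markers, Myh6 and Actc1 among them, spanned 95900 to 128000 CPM in TKO, 108000 to 127000 in DKO, 120000 to 144000 in MKO and 137000 to 169000 in Ctrl. DKO 1, the shallowest library, stood apart for several of the 10 genes. Refits gave the log2 fold changes of the authors' deposited tables to within 0.001 for 100% of genes when DKO 1 and Ctrl 3 were left out. With all libraries kept, the tables that involve DKO or Ctrl were matched for 0.4% to 1.2% of genes. Some values without these libraries are therefore given beside those with them.

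Levels of different genes can be compared per length of exon. In Ctrl, Gata4 had the highest length-scaled level of the 10, at 96.2 ± 11.01 CPM per kb (SD, n = 6), and Tead1 the lowest, at 4.23 ± 0.56 CPM per kb. Between them the order of Ctrl means was Mef2a (72.7 ± 11.3), Nkx2-5 (55.4 ± 5.71), Mef2d (51.4 ± 4.62), Gata6 (43.7 ± 4.56), Tbx20 (20.7 ± 2.14), Mef2c (14.1 ± 1.86), Tbx5 (10.2 ± 1.76) and Hand2 (9.12 ± 1.83 CPM per kb). The 6 Ctrl values of neighbours in this order overlapped for Gata4 and Mef2a, for Nkx2-5 and Mef2d, for Mef2d and Gata6, for Mef2c and Tbx5, and for Tbx5 and Hand2. They did not overlap between Mef2a and Nkx2-5, between Gata6 and Tbx20, between Tbx20 and Mef2c, or between Hand2 and Tead1. The order of the means was nearly the same in the other groups. Hand2 stood above Tbx5 in TKO, and Gata6 stood above Mef2d in TKO. In DKO the mean of Hand2 lay above that of Tbx5 but its median lay below (9.43 and 10.44 CPM per kb), and DKO 1 held the highest value of both genes. Among the MEF2 genes Mef2a had the highest length-scaled level in all 4 groups, Mef2d the next and Mef2c the lowest. Lengths are those of the deposited table, for example 2874 bases for Mef2a and 9962 bases for Tead1, and another annotation would move these levels.

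**Figure D1:**
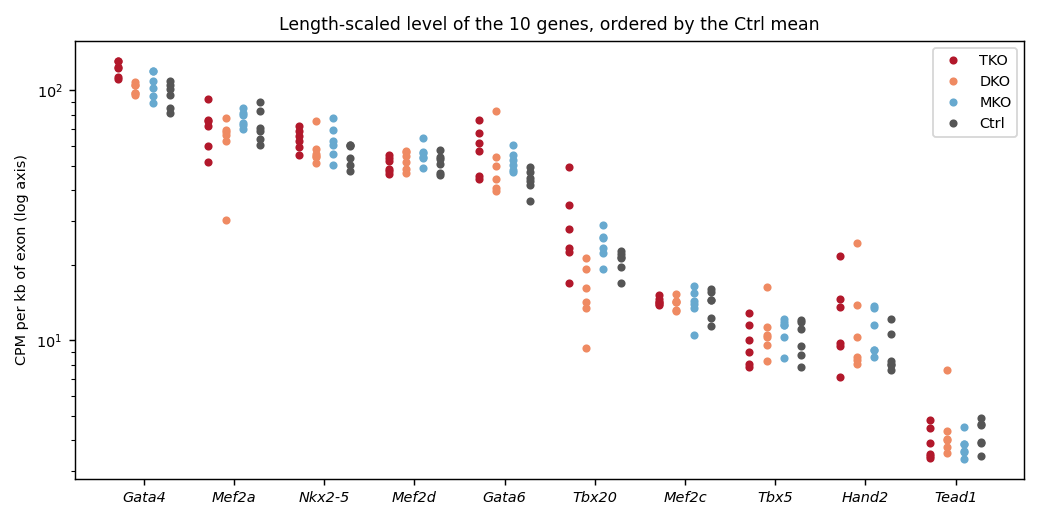
Each point is a library, placed by the gene on the x axis and by CPM per kb of exon on a log y axis, for TKO, DKO, MKO and Ctrl from left to right within a gene. The genes are ordered by their Ctrl mean, from Gata4 at 96.2 CPM per kb to Tead1 at 4.23 CPM per kb, and the single low Mef2a point and high Tead1 point belong to DKO 1.

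Most of the 10 genes did not pass the test in any comparison, and the exceptions were Gata4 and Tbx20. In TKO against Ctrl 1 of the 10 was called at an adjusted p under 0.05 with edgeR's quasi-likelihood test, Gata4, which was higher. In that comparison 14.1% of all tested genes were called and 8.14% were called higher, so the share of the 10 lay near the background. Their median log2 fold change was 0.12, beside -0.01 over all tested genes, and it was as large in MKO against Ctrl (0.13), where none was called, and 0.07 in DKO against Ctrl. In TKO against DKO 1 of the 10 was called, Tbx20, which was higher, where 6.38% of all genes were called and 4.16% were called higher. The median of the 10 was 0.11 there, beside -0.04 over all tested genes.

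No member was called by edgeR in DKO against Ctrl or in MKO against Ctrl, where 0.635% and 0.0% of all genes were called. At an unadjusted p under 0.05 the count was 0 of 10 in both, where 10.5% and 6.2% of all genes lay under it. DESeq2 called 0 of the 10 in both, and 1.12% and 0.00546% of all genes. The voom fit with quality weights also called 0 of the 10 in both, and 2.55% and 0.0244% of all genes. In TKO against MKO edgeR called 0 of the 10, where 13.3% of all genes were called, and Gata4 alone had an unadjusted p under 0.05, as did 27.9% of all genes. In DKO against MKO it called 0, where 0.79% of all genes were called, and Tbx20 alone had an unadjusted p under 0.05, as did 15.3% of all genes. DESeq2 called 0 of the 10 in those comparisons, where it called 14.8% and 1.91% of all genes, and voom called 0 where it called 26.1% and 4.32%. The interaction, which asks whether the TKO to DKO difference exceeded the MKO to Ctrl difference, had 0 of 10 called by edgeR, DESeq2 and voom, with 0.464%, 1.33% and 6.2% of all genes called. Tbx20 was the member with an unadjusted p under 0.05 there, as were 12.4% of all genes. Comparisons that share TKO or Ctrl libraries are not independent of each other.

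**Figure D2:**
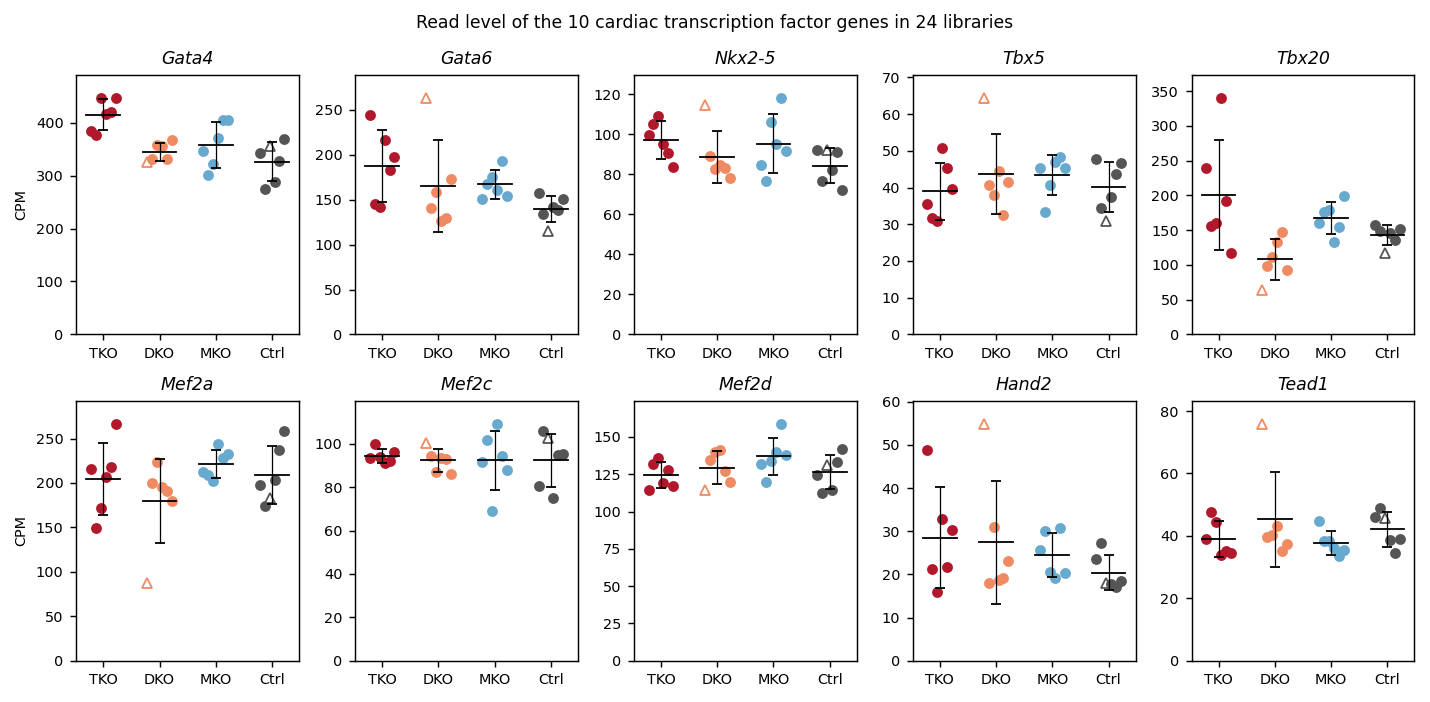
Each panel is a gene, with CPM on the y axis from 0 and the groups TKO, DKO, MKO and Ctrl from left to right, and each point is a library. Bars give the mean and the SD over 6 libraries, and open triangles are DKO 1 and Ctrl 3. All 6 TKO points of Gata4, from 377 CPM, lie above the 6 Ctrl points, whose highest is 368 CPM, while the Tbx20 points of TKO spread from 117 to 340 CPM.

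Gata4 (mm10 chr14:63198915-63245260, minus strand), the GATA factor with the highest level here, drives many genes of contraction and of cardiac growth. In TKO its lowest, median and highest libraries had 377, 418 and 446 CPM. In DKO they had 325, 344 and 366 CPM, in MKO 301, 358 and 405 CPM, and in Ctrl 275.5, 335 and 368 CPM. Every TKO library lay above every Ctrl and every DKO library, and TKO overlapped MKO, in which 2 libraries stood at 405 CPM. Of all tested genes 4.76% had every TKO library above every Ctrl library, and 2.55% had every TKO library above every DKO library. The mean was 415 ± 29.3 CPM in TKO and 326 ± 37.4 CPM in Ctrl (SD, n = 6 each). The log2 fold change was 0.35 ± 0.09 (SE; 95% interval 0.17 to 0.52), with an adjusted p of 0.00754 from edgeR's quasi-likelihood test. All 6 TKO libraries lay above the Ctrl mean. The call was made under all 33 alternatives tried, with log2 fold changes from 0.30 to 0.38 and adjusted p from 0.00106 to 0.0232. With DKO 1 and Ctrl 3 left out it was 0.37 (adjusted p = 0.00365). The authors' deposited table, made without DKO 1 and Ctrl 3, gives 0.36 with an adjusted p of 0.00244.

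Gata4 did not pass against the other groups in the main test. Against DKO its log2 fold change in TKO was 0.27 ± 0.09 (95% interval 0.09 to 0.45, edgeR adjusted p = 0.0626). It passed in 4 of the 33 alternatives. Among them were DESeq2 (adjusted p = 0.0254), which called 8.99% of all genes, voom (0.0362), which called 12.7%, and the fit with sex as a covariate (0.0481). Sex was read from the counts of Xist and 4 Y-linked genes and not from the labels. Over the 33 alternatives the adjusted p of Gata4 ran from 0.0254 to 0.133, and the authors' deposited table gives 0.26 with an adjusted p of 0.00351. Against MKO the difference was 0.21 ± 0.09 (95% interval 0.03 to 0.39, edgeR adjusted p = 0.104), and it passed only with DKO 1 and Ctrl 3 left out (0.23, adjusted p = 0.0473). In DKO and MKO against Ctrl it was 0.08 ± 0.09 and 0.13 ± 0.09. The interaction for Gata4 was 0.13 ± 0.12 (95% interval -0.12 to 0.38, edgeR adjusted p = 0.713), so a larger difference between the viruses on the DKO genotype was not shown. By the labels, TKO against DKO and MKO against Ctrl each set AAV-Myocd-sgRNA against AAV-Cre. The parts of the guide and of the Cre virus therefore cannot be told apart.

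The summed cardiomyocyte markers were lower in TKO than in Ctrl, as given above, while Gata4 was higher. Much of that sum is Myh6, with medians of 51608 CPM in TKO and 82320 CPM in Ctrl. The medians of the sum were 103000 and 157000 CPM. Of the 10 markers 4 were called lower, where 14.1% of all genes were called, and 2 had positive log2 fold changes. Markers of other cells, each list with no gene at 0 in all libraries of a group, overlapped between TKO and Ctrl. The 10 fibroblast markers summed to 321 to 414 CPM in TKO and 170 to 759 CPM in Ctrl. The 10 endothelial markers summed to 128 to 498 CPM in TKO and 126 to 1320 CPM in Ctrl. The 8 smooth muscle and pericyte markers summed to 396 to 664 CPM in TKO and 472 to 811 CPM in Ctrl. The 8 leukocyte markers summed to 9.93 to 15.7 CPM in TKO and 5.47 to 14.9 CPM in Ctrl, and the 6 epicardial markers to 6.17 to 16.9 CPM in TKO and 2.11 to 37.4 CPM in Ctrl. The 6 atrial markers, mostly Nppa in TKO, summed to 141 to 3950 CPM in TKO and 64.6 to 519 CPM in Ctrl. The part of these cells in the Gata4 result was not tested, and in such bulk samples fewer cells of a type and less RNA per cell cannot be told apart.

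Gata6 (chr18:11052510-11085635, plus strand) can stand in for Gata4 in part of its work in the heart. Its lowest, median and highest libraries had 142, 190 and 244 CPM in TKO, 127, 150.0 and 263 CPM in DKO, 150.5, 164 and 194 CPM in MKO, and 115, 140.2 and 157 CPM in Ctrl. TKO 1 and TKO 4, with 244 and 216 CPM, were the highest of their group, and the 2 lowest TKO libraries lay within the Ctrl values. Against Ctrl the TKO log2 fold change was 0.43 ± 0.15 (95% interval 0.12 to 0.74), and the adjusted p was 0.0595 by edgeR, so Gata6 was not called. It passed in 7 of the 33 alternatives, with adjusted p from 0.00991 to 0.16. DKO 1 enters this comparison only through the filter, scaling and estimate of spread that all libraries share. Without it the log2 fold change was 0.42 ± 0.12 with an adjusted p of 0.00991, in a fit that called 2808 of 12366 genes. With DKO 1 and Ctrl 3 left out it was 0.38 ± 0.12 with an adjusted p of 0.027, in a fit that called 21.3% of all genes. The authors' deposited table gives 0.37 with an adjusted p of 0.0609. In DKO against Ctrl the log2 fold change was 0.24 with all libraries and 0.06 ± 0.12 without DKO 1, so that value rested on DKO 1. In TKO against DKO it was 0.18 with all libraries (edgeR adjusted p = 0.465) and 0.37 with DKO 1 and Ctrl 3 left out (adjusted p = 0.0484), and voom also called it.

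Tbx20 (chr9:24720812-24774303, minus strand), a T-box factor that adult heart muscle needs for contraction and calcium handling, had the largest difference between groups among the 10. Its lowest, median and highest libraries had 117, 177 and 340 CPM in TKO, 64.3, 105 and 148 CPM in DKO, 133, 169 and 199 CPM in MKO, and 117, 148 and 157 CPM in Ctrl. The TKO libraries varied most, since TKO 4 had 340 CPM and TKO 1 had 239 CPM, while TKO 6 had 117 CPM. Of the 6 DKO libraries 4 lay below every Ctrl library, and the ranges of TKO and DKO overlapped. The mean was 201 ± 79.4 CPM in TKO and 108 ± 29.9 CPM in DKO (SD, n = 6 each). Tbx20 rose in TKO against DKO by 0.89 ± 0.20 on the log2 scale (95% interval 0.49 to 1.3, edgeR adjusted p = 0.00624), and all 6 TKO libraries lay above the DKO mean. The value was 0.79 ± 0.19 without DKO 1 (adjusted p = 0.0106) and 0.68 without TKO 4 (adjusted p = 0.0234). With only the TKO and DKO libraries in the fit it was 0.90 and the call was lost (adjusted p = 0.0764), the only loss among the 33 alternatives, whose lowest adjusted p was 0.000479. The authors' deposited table gives 0.79 with an adjusted p of 0.00835.

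Against Ctrl, Tbx20 was not called in either group. Its log2 fold change was 0.49 ± 0.20 in TKO (95% interval 0.09 to 0.89, edgeR adjusted p = 0.0996) and -0.40 ± 0.20 in DKO (95% interval -0.81 to 0.00, adjusted p = 0.482). The TKO value was 0.27 without TKO 4 (adjusted p = 0.346) and 0.60 without TKO 6 (adjusted p = 0.0339). The DKO value was -0.30 ± 0.19 without DKO 1, whose 64.3 CPM was the lowest of the 24. In DKO against MKO the log2 fold change was -0.63 ± 0.20 (95% interval -1.03 to -0.22, edgeR adjusted p = 0.146) and -0.51 without DKO 1 (adjusted p = 0.229), while the authors' deposited table gives -0.52 with an adjusted p of 0.00779. The interaction was 0.67 ± 0.28 (95% interval 0.10 to 1.24), with an unadjusted p of 0.0237 and an edgeR adjusted p of 0.311.

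Tbx5 (chr5:119834663-119885218, plus strand), which with Nkx2-5 and Gata4 sets the program of the conduction system and the chambers, did not follow Tbx20. Its lowest, median and highest libraries had 30.9, 37.5 and 50.7 CPM in TKO, 32.6, 41.1 and 64.3 CPM in DKO, 33.4, 45.3 and 48.2 CPM in MKO, and 30.8, 40.6 and 47.7 CPM in Ctrl. All 4 groups overlapped, and the highest value was that of DKO 1. Its log2 fold change was -0.05 ± 0.15 in TKO against Ctrl (95% interval -0.36 to 0.26) and 0.11 ± 0.15 both in DKO and in MKO against Ctrl. With DKO 1 and Ctrl 3 left out the DKO value was -0.10 ± 0.13 and the MKO value 0.03 ± 0.13, and without DKO 1 alone the DKO value was -0.03 ± 0.14. None was called.

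Nkx2-5 (chr17:26838665-26841565, minus strand) is an early marker and lasting regulator of heart muscle. Its lowest, median and highest libraries had 83.7, 97.6 and 109 CPM in TKO, 78.0, 84.0 and 114.5 CPM in DKO, 76.6, 93.6 and 118 CPM in MKO, and 72.4, 86.5 and 92.4 CPM in Ctrl. The groups overlapped, with 5 of 6 TKO libraries above the Ctrl mean. In TKO against Ctrl its log2 fold change was 0.21 ± 0.11 (95% interval -0.01 to 0.42, edgeR adjusted p = 0.215). In TKO against DKO it was 0.14 with all libraries and 0.23 ± 0.10 without DKO 1 (adjusted p = 0.143), and the authors' deposited table gives 0.23 with an adjusted p of 0.0524.

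Hand2 (chr8:57320983-57324517, plus strand), a factor of right ventricle formation, had few reads, from 145 to 618 per library. Its lowest, median and highest libraries had 15.9, 26.1 and 48.7 CPM in TKO, 17.95, 21.1 and 54.7 CPM in DKO, 19.3, 23.1 and 30.8 CPM in MKO, and 16.99, 18.3 and 27.2 CPM in Ctrl. TKO 1 and DKO 1 were far above the rest. Its log2 fold change was 0.48 ± 0.26 in TKO against Ctrl (95% interval -0.05 to 1.02, edgeR adjusted p = 0.236) and 0.26 ± 0.25 without TKO 1 (adjusted p = 0.558), over a range of adjusted p from 0.105 to 0.558. In DKO against Ctrl it was 0.41 with all libraries and 0.10 ± 0.22 without DKO 1. The library kits do not mark the strand, and GENCODE M21 lists the antisense gene Hand2os1 over 461 exon bases of Hand2, so reads of the pair cannot be told apart there. The same annotation lists genes on the other strand over 93 exon bases of Gata6, 302 of Mef2a and 531 of Mef2d.

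The promoters of Tbx20 and Hand2 are shown because Tbx20 was called between TKO and DKO and Hand2 moved between libraries with Gata6, as described below. They are the 250 bases before the start of each gene, read 5′ to 3′ on the gene's strand, from RefSeq on GRCm38.p6, at chr9:24774304-24774553 (minus strand) and chr8:57320733-57320982 (plus strand). Capitals mark GATAA on either strand, the letters that GATA factors bind.
Tbx20: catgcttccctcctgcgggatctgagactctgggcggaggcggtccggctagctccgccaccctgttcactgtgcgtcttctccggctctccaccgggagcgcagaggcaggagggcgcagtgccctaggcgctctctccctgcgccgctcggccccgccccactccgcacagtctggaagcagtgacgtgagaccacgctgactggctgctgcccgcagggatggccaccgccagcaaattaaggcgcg
Hand2: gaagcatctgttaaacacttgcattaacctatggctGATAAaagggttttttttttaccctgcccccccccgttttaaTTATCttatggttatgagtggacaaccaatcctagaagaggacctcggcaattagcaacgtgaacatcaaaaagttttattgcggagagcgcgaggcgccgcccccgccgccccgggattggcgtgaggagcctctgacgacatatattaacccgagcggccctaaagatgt

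The Tbx20 window was rich in G and C (68.8%), and that of Hand2 was less so (49.2%). Member windows on chr18, which holds Gata6, were not used. Promoter windows of 300 bases, from 250 before to 50 after a start, were used for 6 of the 10 genes. They were 8 windows in all, since Mef2c has several starts. They were searched on both strands for the CArG box, to which Srf binds, for the MEF2 site, for GATAA, for GGAATG, which TEAD factors bind, and for GGTGTG, which T-box factors bind. GATAA began at position -214 from the Hand2 start and its complement at position -172, and GATAA lay at 2 places in a Mef2c window. GATAA is common, present in 25.4% of all 32851 mouse windows. The Mef2a window held a MEF2 site, ctaaaaatag, that began at position -2, where 3.19% of all windows hold such a site. GGTGTG, present in 19% of all windows, lay in the Mef2a window and in the Mef2c window with GATAA, and GGAATG, present in 14.7%, lay in another Mef2c window. The CArG box, present in 1.63% of all windows, was in none of the 8, and the windows of Tbx20, Nkx2-5 and Mef2d held none of the 5 motifs. These are matches of letters in short windows and give no sign of binding.

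Mef2a (chr7:67233827-67372858, minus strand), a MEF2 gene of the postnatal heart, had 149, 212 and 266 CPM in its lowest, median and highest TKO libraries. The same values were 87.5, 193 and 223 CPM in DKO, 202, 220.0 and 244 CPM in MKO, and 174.5, 200.3 and 258 CPM in Ctrl. The groups overlapped, and DKO 1 at 87.5 CPM lay far below the other DKO libraries, which had at least 180 CPM. The log2 fold change was -0.03 ± 0.16 in TKO and -0.22 ± 0.16 in DKO against Ctrl, and the DKO value was -0.09 ± 0.12 without DKO 1.

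Mef2c (chr13:83504034-83667079, plus strand), needed for the forming heart tube, had nearly equal medians in the 4 groups. Its lowest, median and highest libraries had 91.1, 93.7 and 99.9 CPM in TKO, 85.9, 93.3 and 101 CPM in DKO, 68.9, 93.0 and 109 CPM in MKO, and 75.1, 95.1 and 106 CPM in Ctrl. The coefficient of variation was 3.4% in TKO and 5.8% in DKO, against 14.8% in MKO and 13.2% in Ctrl. The log2 fold change in TKO against Ctrl was 0.03 ± 0.09 with a 95% interval of -0.16 to 0.22, and it was 0.00 ± 0.09 in DKO and in MKO against Ctrl with an interval of -0.19 to 0.19 in each.

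Mef2d (chr3:88142395-88169167, plus strand), a MEF2 gene tied to stress remodelling of the adult mouse heart, had 114, 124 and 136 CPM in its lowest, median and highest TKO libraries. The same values were 115, 131 and 141 CPM in DKO, 120.1, 136 and 158 CPM in MKO, and 112, 128 and 142 CPM in Ctrl. All groups overlapped. Its log2 fold change was -0.02 ± 0.08 in TKO against Ctrl (95% interval -0.18 to 0.14), 0.04 ± 0.08 in DKO and 0.12 ± 0.08 in MKO against Ctrl. None of the MEF2 genes was called in any of the 7 comparisons.

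Tead1 (chr7:112679320-112906805, plus strand), the DNA-binding partner of Yap1, had 33.8, 37.0 and 47.7 CPM in its lowest, median and highest TKO libraries. The same values were 35.2, 40.0 and 75.7 CPM in DKO, 33.5, 37.2 and 44.8 CPM in MKO, and 34.4, 42.4 and 48.8 CPM in Ctrl. The groups overlapped and DKO 1 alone exceeded 50 CPM. Its log2 fold change was -0.11 ± 0.15 in TKO against Ctrl (95% interval -0.41 to 0.20). In TKO against DKO it was -0.20 with all libraries and 0.00 ± 0.10 without DKO 1.

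**Figure D3:**
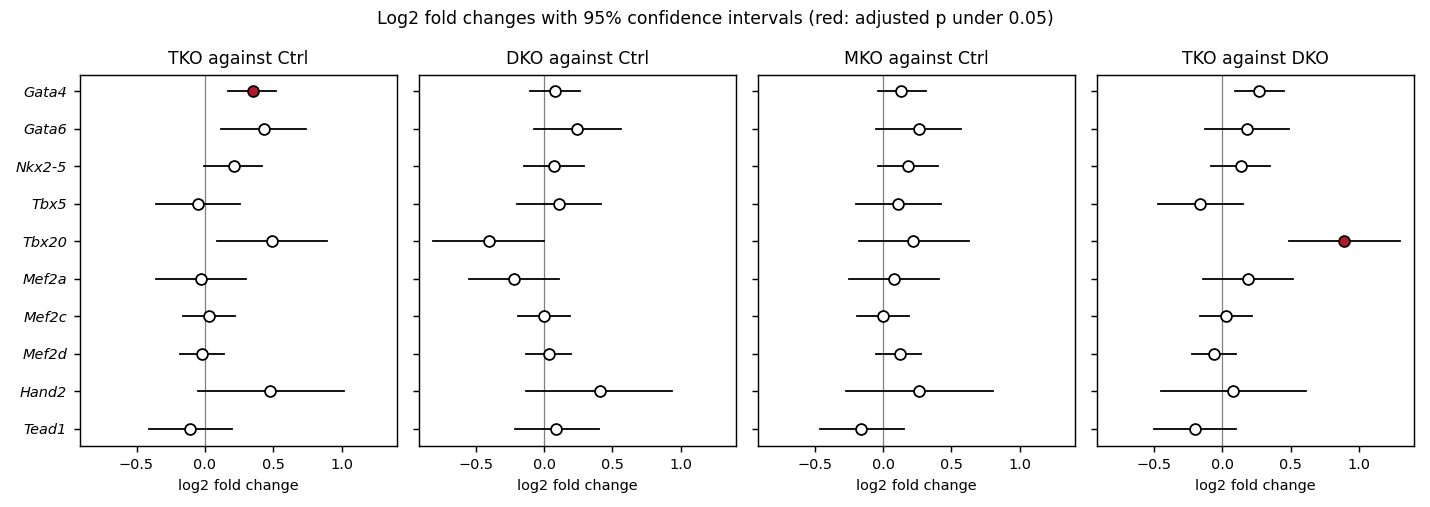
Points are log2 fold changes from edgeR and lines their 95% confidence intervals, for the 10 genes on the y axis in TKO, DKO and MKO against Ctrl and in TKO against DKO. Red points have an adjusted p under 0.05: Gata4 at 0.35 in TKO against Ctrl and Tbx20 at 0.89 in TKO against DKO.

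Libraries of the same group also differed from each other, and some of the 10 genes moved together. Of the 45 pairs of members, 4 passed with Pearson's r over the 24 libraries after each group's mean was removed, 2 passed with Spearman's rho and 2 passed with both. Permutation tests drew 100000 reorderings within groups and were adjusted over the 45 pairs. How many pairs of other genes would pass was not tested, so these counts have no background beside them. Gata6 and Hand2 varied together (r = 0.83, permutation p = 0.00014, adjusted p = 0.0063; rho = 0.76, permutation p = 0.00029, adjusted p = 0.0131). The r was 0.64 without DKO 1 and TKO 1, the libraries farthest from the Gata6 median, and 0.73 without DKO 1 alone. Mef2a and Tead1 moved in opposite directions (r = -0.88, permutation p = 0.0003, adjusted p = 0.00675; rho = -0.73, permutation p = 0.0008, adjusted p = 0.018). That r was -0.62 without DKO 1 and TKO 2 and -0.70 without DKO 1 alone. Gata4 with Mef2d (r = 0.65, permutation adjusted p = 0.0276; rho = 0.59, adjusted p = 0.0744) and Gata6 with Tbx5 (r = 0.66, permutation adjusted p = 0.0453; rho = 0.56, adjusted p = 0.0936) passed with Pearson's r only. The r of Gata4 with Mef2d was 0.51 without MKO 2 and Ctrl 2. The r of Gata6 with Tbx5 was 0.63 without DKO 1 and TKO 1 and 0.48 without DKO 1 alone. Depth varies between the same libraries, with DKO 1 the shallowest at 5.83 M counts, and its part in these relations was not tested.

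**Figure D4:**
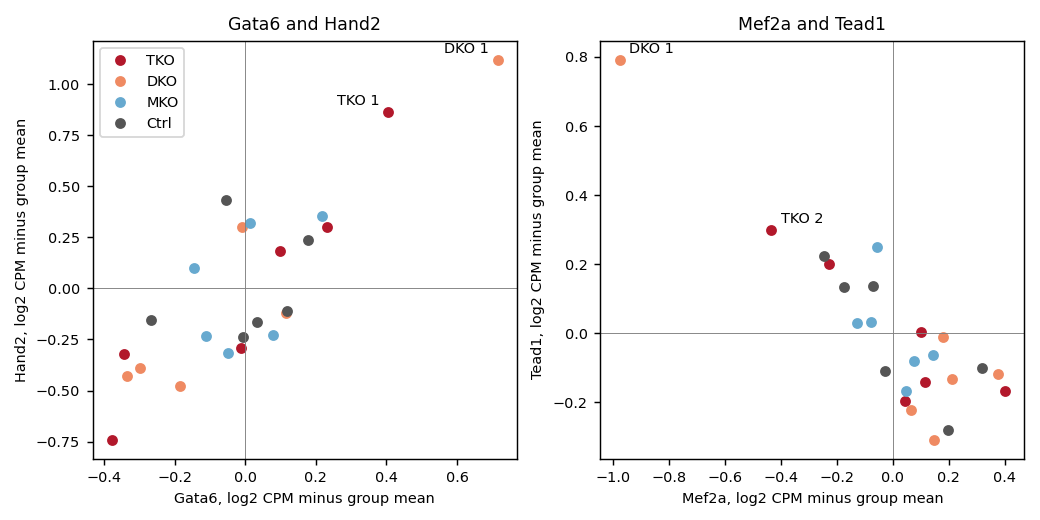
Each point is a library, with log2 CPM minus the mean of its group on both axes, for Gata6 and Hand2 on the left and Mef2a and Tead1 on the right, coloured by TKO, DKO, MKO and Ctrl. Gata6 and Hand2 rise together (r = 0.83) and Mef2a and Tead1 run opposite ways (r = -0.88), with DKO 1 at the far end of both.

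TKO 1 and TKO 4 were the highest TKO libraries for Gata6, Hand2 and Tbx20. They had 244 and 216 CPM of Gata6, 48.7 and 32.9 CPM of Hand2, and 239 and 340 CPM of Tbx20. They were also the highest of their group for Myocd, the gene that the guide targets, with 324 and 296 CPM. The genes whose group-centred log2 CPM most resembled that of Gata4 over the 24 libraries, among 12280 genes, were Ptbp2 (r = 0.81), Synpo2l (r = 0.75) and Pkp2 (r = 0.72). Ptbp2 encodes a regulator of splicing, Synpo2l a protein of the Z-disc and Pkp2 a desmosomal protein of the intercalated disc.

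The genes around the 10 factors were read from 4 lists. None of the 7 tested genes of the same families, of 17 listed, was called in TKO against Ctrl by edgeR, DESeq2 or voom. Over all genes edgeR called 14.1%, DESeq2 2129 of 14105 and voom 2644 of 12281, so 0 of so few genes does not set this list apart. Of the 7, 0 had an unadjusted p under 0.05, and the share of all genes under it is not given here. Of 17 tested cofactors 2 rose and 0 fell in TKO against Ctrl, a share near the 14.1% of all genes called in that comparison. Yap1, the Hippo coactivator that binds Tead1, had 48.5, 53.1 and 63.9 CPM in its lowest, median and highest TKO libraries, against 38.2, 39.4 and 45.8 CPM in Ctrl. The groups did not overlap, and 4.76% of all tested genes had every TKO library above every Ctrl library. Yap1 rose by 0.41 ± 0.08 on the log2 scale (edgeR adjusted p = 0.0014). Hdac5, a class IIa histone deacetylase that represses MEF2 factors, had 155, 174.5 and 197 CPM in TKO, against 124.5, 129.6 and 161 CPM in Ctrl. It rose by 0.37 ± 0.10 (edgeR adjusted p = 0.0174), and the groups overlapped at their edges. Both calls held under all 33 alternatives.

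Of 14 other cardiac transcription factors 1 rose and 1 fell in TKO against Ctrl, also near the 14.1% of all genes. Irx3, an Iroquois factor of the conduction system, averaged 44.4 ± 8.42 CPM in TKO and 24.8 ± 8.75 CPM in Ctrl (SD, n = 6 each). It rose by 0.84 ± 0.23 on the log2 scale (edgeR adjusted p = 0.0118) and was called under all 33 alternatives. Hey2, a Notch-responsive repressor of the ventricle, averaged 2.14 ± 0.29 CPM in TKO and 3.47 ± 0.90 CPM in Ctrl. It fell by 0.71 ± 0.23 (edgeR adjusted p = 0.0385), was called under 24 of the 33 alternatives, and lies at a low level. Its call was lost without Ctrl 4, 5 or 6 and without TKO 1, 2, 3, 5 or 6, with adjusted p up to 0.0964.

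The 22 genes known as targets of these factors split into both directions in TKO against Ctrl, with 4 higher, 6 lower and a median log2 fold change of -0.10. Of all tested genes 14.1% were called in that comparison and 8.14% were called higher. Ankrd1, a stress-responsive protein of the sarcomere, rose by 1.78 ± 0.25 (edgeR adjusted p = 1.97e-05). All its TKO libraries lay above all Ctrl libraries, as for 4.76% of all tested genes. Nppa, atrial natriuretic peptide, had 109, 929 and 3924 CPM in its lowest, median and highest TKO libraries, against 50.7, 195 and 403 CPM in Ctrl. Its log2 fold change was 2.92 ± 0.78, with an edgeR adjusted p of 0.0118, and it was called under all 33 alternatives. Myh7, the slow myosin heavy chain, rose by 1.26 ± 0.37 (edgeR adjusted p = 0.0219), and without TKO 4, which had 2059 CPM where the next TKO library had 512, it was 0.47 and not called (adjusted p = 0.173). Myh7 was called under 26 of the 33 alternatives, with a lowest adjusted p of 0.00786, and its call was also lost without Ctrl 4 or Ctrl 5. Gja5, a gap junction protein of atria and conduction fibres, rose by 1.39 ± 0.44 (edgeR adjusted p = 0.0347) and was called under 25 of the 33 alternatives. The Gja5 call was lost without Ctrl 1, 3, 4 or 6 and without TKO 5 or 6, with adjusted p up to 0.134.

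Of the 6 targets that fell, 4 are named by the smallest adjusted p. Actc1, cardiac actin, fell by 1.17 ± 0.19 (edgeR adjusted p = 0.000131), Tnnc1, troponin C, by 0.90 ± 0.20 (adjusted p = 0.00262), titin (Ttn) by 0.80 ± 0.22 (adjusted p = 0.0151), and Myh6, the fast myosin heavy chain, by 0.63 ± 0.18 (adjusted p = 0.0179). Other sarcomere genes of the list did not pass, among them Tnnt2, cardiac troponin T (-0.12 ± 0.10, edgeR adjusted p = 0.509), Tnni3, cardiac troponin I (-0.32 ± 0.17, adjusted p = 0.23), and Myl2, the ventricular myosin light chain (-0.04 ± 0.17, adjusted p = 0.915). Actc1 spanned 6965 to 15090 CPM in TKO and 21680 to 27651 CPM in Ctrl. Myh6 spanned 44367 to 64173 CPM in TKO and 67490 to 93271 CPM in Ctrl. How many of all genes lay lower in TKO without overlap is not given here. The sources used here do not state how reads that match several genes were counted, so values of actins and myosins, which have near-identical relatives, are uncertain. The lists also serve as markers, since Actc1, Ttn and Myh6 are among the 10 cardiomyocyte markers. Of these 10, 4 fell in TKO against Ctrl, the fourth being Myl3, where 14.1% of all tested genes were called in either direction. Of the tested markers of other cells, Gsn (fibroblast list), Cspg4 (smooth muscle and pericyte list) and Nppa (atrial list) were called higher. None was called lower. Without regard to calls, log2 fold changes were positive for 2 of 9 fibroblast, 2 of 7 smooth muscle and pericyte and 2 of 6 atrial markers. They were positive for 1 of 10 endothelial, 1 of 6 epicardial and 5 of 6 leukocyte markers. In MKO against Ctrl edgeR called 0 of the 60 tested genes of the 4 lists, where it called 0.0% of all genes. There 5 of the 60 had an unadjusted p under 0.05, as did 6.2% of all genes. DESeq2 and voom called 0 of the 60 there, and 0.00546% and 0.0244% of all genes. In DKO against Ctrl 6 of the 60 had an unadjusted p under 0.05 by edgeR, as did 10.5% of all genes. DESeq2 called 1 of the 60 and voom 4, and 1.12% and 2.55% of all genes. There edgeR called 1 of the 60, and 0.635% of all genes. That gene was Slc8a1, the sodium-calcium exchanger, named after its value was seen. It averaged 132 ± 15.7 CPM in DKO and 199 ± 28.3 CPM in Ctrl (log2 fold change -0.59 ± 0.12, edgeR adjusted p = 0.00739).

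**Figure D5:**
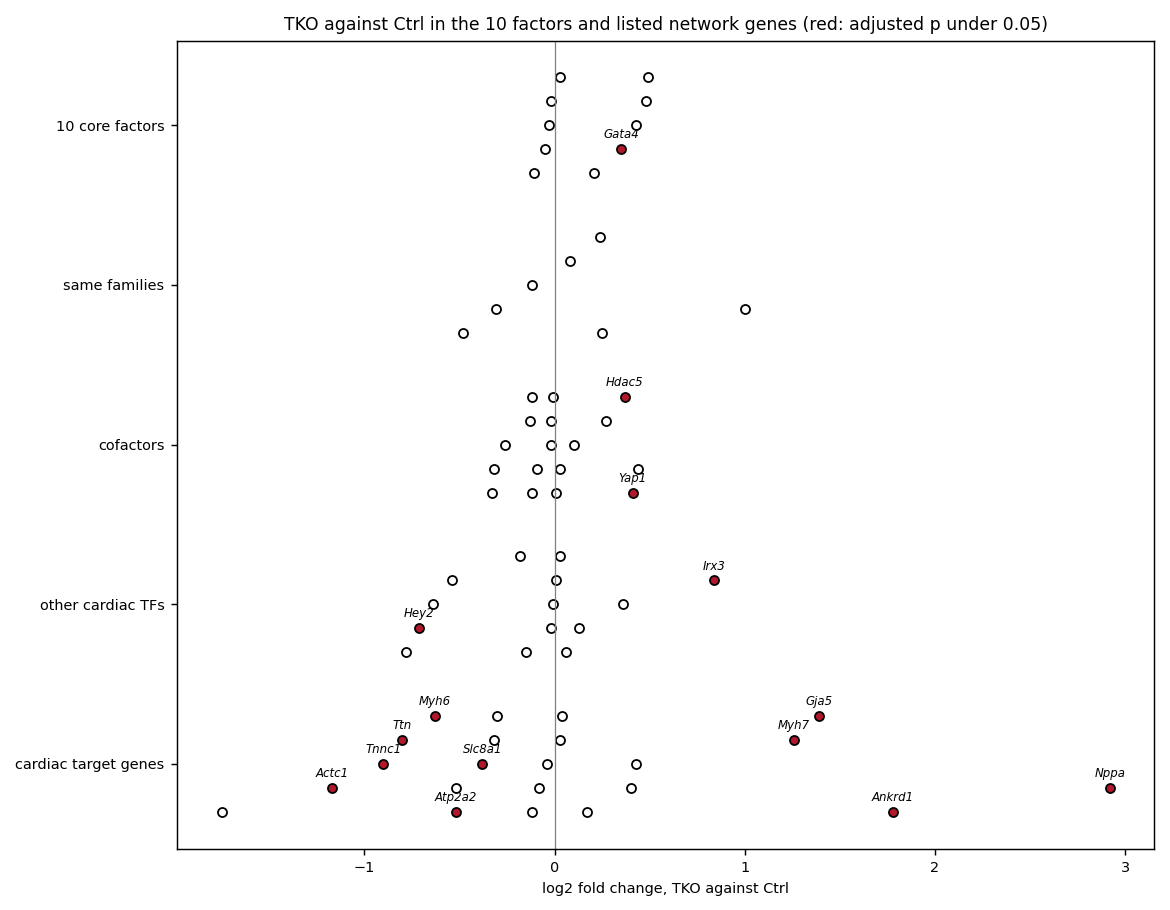
Each point is a gene, with its log2 fold change in TKO against Ctrl on the x axis and its list on the y axis, and vertical offsets within a list only separate points. Red points, with an adjusted p under 0.05, are 1 of the 10 core factors (Gata4), 2 cofactors, 2 other cardiac transcription factors and 10 of 22 cardiac target genes. Of all tested genes 14.1% were called.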

How the data were processed

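RNA of 24 libraries was measured by full-length cDNA amplification and Nextera XT sequencing libraries, per the labels' protocols. The authors deposited whole-number read counts per gene, and the submitters' processing notes name STAR, featureCounts, DESeq2 and the build mm10. Their deposited DESeq2 tables give, for each pair of groups, log2 ratios with p-values and adjusted p-values, per the file headers. These tables also hold a mean count signal over the compared libraries and a Wald score, per the file headers, neither of which was used. Groups were taken from the sample titles and labels. Nothing says that the libraries of a group come from separate animals, so p-values measure the spread between these libraries.

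The test was edgeR's two-sided quasi-likelihood test (edgeR 4.0.16, R 4.3.3), with TMM scaling, all 24 libraries in 1 fit and filterByExpr at a minimum count of 10. Benjamini-Hochberg adjustment ran over 12281 genes, with a call at an adjusted p under 0.05. CPM are counts scaled to the effective library size, and log2 CPM for correlations add a prior count of 2. DESeq2 1.42.0 and voom in limma 3.58.1 were alternatives. The members and lists were chosen with earlier results of these data known, and so were the promoter motifs. Named list genes are those called in TKO against Ctrl, up to 4 per list and direction with the smallest adjusted p. The deposited table's exons of the 10 genes share no base with another gene. Positions are those of the deposited table.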

Additional observations from a re-analysis of the deposited data

Results flagged for a closer look

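In 5 of the 40 sets of 6 libraries (10 genes in 4 groups), the gap between a library and its nearest neighbour, over the range of the set, passed Dixon's critical value, and chance flags about 1 in 20 such sets. The library was DKO 1 each time. Gata6 had 263 CPM in DKO 1, against 127 to 174 CPM in the other DKO libraries. Hand2 had 54.7 CPM in DKO 1, against 17.95 to 30.9 CPM in the others. Nkx2-5 had 114.5 CPM there, against 78.0 to 89.2 CPM. Tead1 had 75.7 CPM there, against 35.2 to 43.3 CPM. Mef2a had 87.5 CPM there, the lowest of the DKO libraries, against 180 to 223 CPM in the others. The summed fibroblast markers of DKO 1 were 142 CPM and its smooth muscle and pericyte markers 194 CPM, each the lowest of the DKO libraries, and its atrial markers were 606 CPM, the highest. The part of these cells in the flagged values was not tested.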

How the results depend on the processing

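Of 2300 member values recomputed under the alternatives, 2284 kept their side of the threshold, 15 passed it only in the alternative, 1 was lost and 0 reversed among called values. Values with no call changed sign 98 times. In TKO against Ctrl the count of members called was 1, and it was 2 with voom, with only the 2 groups compared, with the replicate block and with 22 libraries (Ctrl 3 and DKO 1 left out); leaving out each replicate in turn gave 1 to 2. In TKO against DKO it was 1, and it was 2 with DESeq2, with that block, with 22 libraries and with sex as a covariate, 3 with voom and 0 with only the 2 groups compared. In TKO against MKO it was 0, and 1 with 22 libraries. RLE and upper-quartile scaling and no filter on low counts changed no count of members. The labels do not say that a replicate number marks a shared source. Deviations of 36 same-numbered pairs correlated between -0.218 and 0.642, with a median of 0.072 and 14 of them above 0.1. The same number gave the highest correlation in only 4 pairs, 3 of them of replicate 2. In the other pairs a library of another number correlated more, so these values do not show that replicate numbers mark a shared source. The highest value, 0.642, joined MKO 2 and Ctrl 2. These had the highest summed endothelial markers of their groups (1120 and 1320 CPM), and the part of such cells in that correlation was not tested. With the replicate block Gata4 passed in TKO against DKO (0.26, adjusted p = 0.0355) and Gata6 in TKO against Ctrl (0.41, adjusted p = 0.0457). Over all genes, calls in TKO against Ctrl were 1734 of 12281, 2644 with voom and 1792 with the block. They were 2028 of 11778 with only the 2 groups compared and 2627 of 12356 with 22 libraries. In TKO against DKO they were 784, 1174 of 13058 with DESeq2, 1561 with voom and 908 with the block. They were 1233 with sex as a covariate, 269 of 11969 with only the 2 groups compared and 1239 with 22 libraries. In TKO against MKO they were 1639, and 2892 with 22 libraries. In these settings more members were called only where more genes were called too. Precision was lowest for Hand2, whose 95% interval in TKO against Ctrl ran from -0.05 to 1.02 on the log2 scale. The cause of these changes was not tested.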
